A study of Homo sapiens with 29 samples.

Results

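GPRC5A, GPRC5B and GPRC5C are orphan receptors of the GPRC5 family, and their transcripts were followed by RNA sequencing through RAS-induced senescence and SMARCA4 knockdown in human lung fibroblasts. They are 3 of the 28266 gene symbols counted. GPRC5A was chosen by its measured values, a low level in senescent cells and a higher one after knockdown, so its group levels are a description and carry no test. GPRC5B and GPRC5C were added as its relatives. The fourth family gene, GPRC5D, gave 1 count in 1 library and is not described further.

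All libraries were labelled as IMR90 ER:RAS cells, a label that 1 of them, described below, goes against. This established lung fibroblast line was made by retroviral transfer of a vector that encodes a fusion of the estrogen receptor (ER) with oncogenic RAS. The fusion is switched on by 4-hydroxytamoxifen (4OHT). The 3 groups of 6 libraries were DMSO_siNT (growing cells, vehicle, non-targeting siRNA), 4OHT_siNT (cells in oncogene-induced senescence, non-targeting siRNA) and 4OHT_siSMARCA4 (the same induction with siRNA that targets SMARCA4, the motor ATPase of SWI/SNF chromatin remodellers). Every arm, controls included, was transfected with siRNA 1 day before induction, and RNA was labelled as taken 7 days after it. Each arm used an siRNA numbered 2 or 4, with 3 libraries each. A non-targeting and a SMARCA4 siRNA of the same number are different reagents that share only the number. Each library carries a set name that ends in V or VM, letters that the sources used here do not explain. In 1 knockdown library the set name of the count column ends in VM but matches no sample title of its siRNA. That library is treated as having no set label and is called unlabelled below. The letters were not balanced: DMSO_siNT held 3 V and 3 VM libraries, 4OHT_siNT 6 VM, and 4OHT_siSMARCA4 3 V, 2 VM and the unlabelled one. Nothing in the labels says that libraries of a group came from separate cultures, so the p-values below measure only the spread between these libraries.

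Members of the GPRC5 family have the seven-helix fold of class C receptors but lack the large ligand-binding domain of glutamate and GABA receptors, and no ligand is firmly established for them. The family was first found through genes that retinoic acid switches on. GPRC5A is best known from lung epithelium, where its loss is linked to lung tumors, GPRC5B from brain and adipose tissue, and GPRC5C from kidney and blood stem cells.

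Summed counts per library lay between 9657309 and 18039313, and levels below are counts scaled to library size by TMM (CPM) unless said otherwise. SMARCA4 was at 70.4 to 140.7 CPM in the 6 knockdown libraries and at 274.8 to 329.9 CPM in the 4OHT_siNT libraries, without overlap (log2 difference -1.61 ± 0.14 SE, edgeR quasi-likelihood test, adjusted p = 1.3e-06). The library DMSO_siNT 4-2V (siRNA 4, set 2V) stood apart. It held 29.5 CPM of ESR1 and 436 CPM of HRAS, the genes whose reads report the fusion, against at least 1034 and 2165 CPM in the other 5 DMSO_siNT libraries, so it goes against its cell line label. Without it, 58.3% of 13276 genes were called in senescence and 24.6% after knockdown, against 52.8% and 10.6% of 13136 with it. The main values of GPRC5A and GPRC5B that use it are therefore given with and without it, and so are most counts of list genes. The contrasts of GPRC5C and most settings of the closing section are given only with it. It also had the fewest counts and the most genes detected, 17915 against at most 16888 elsewhere. All 9 fibroblast markers were tested, 5 called lower in senescence, where 28.9% of all genes were, and 6 lower after knockdown, where 5.65% were. Without DMSO_siNT 4-2V, 7 of the markers were lower in senescence, against 30.3% of all genes, and 7 after knockdown, against 12.9%. The summed level of all 9 was 11873 to 31616 CPM in DMSO_siNT, 15091 to 20015 CPM in 4OHT_siNT and 8751 to 12737 CPM in 4OHT_siSMARCA4. The 11 epithelial markers, of which only CLDN4 passed the filter, summed to at most 11.4 CPM in any library, with KRT5, GRHL2, SFTPC and SCGB1A1 at 0 in all 18, and endothelial and leukocyte markers, mostly CD68, to 46.5 to 76.1 CPM. The part of these levels in the results below was not tested. In bulk RNA, fewer cells that express a gene and less of its RNA per cell cannot be told apart.

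GPRC5A lies on chromosome 12 (GRCh38, chr12:12891559-12917937, plus strand, 4 exons in the canonical transcript of GENCODE 44) and was the most abundant member in growing cells. In DMSO_siNT its level was 65.9, 52.9, 25.6, 34.1, 36.03 and 26.4 CPM (libraries 2-1V, 2-2V, 2-2VM, 4-2V, 4-2VM and 4-3VM), a mean of 40.2 ± 16.0 CPM (SD, n = 6). In 4OHT_siNT it was 2.26, 3.67, 3.47, 3.41, 3.28 and 3.44 CPM, a mean of 3.25 ± 0.504 CPM (SD, n = 6) from 31 to 53 counts a library. Every senescent control was below every growing library, and the senescent mean was 8.10% of the growing one. Without DMSO_siNT 4-2V the growing mean was 41.4 ± 17.6 CPM (SD, n = 5) and the share 7.86%. In 4OHT_siSMARCA4 it was 12.8, 30.7, 34.3, 6.84, 21.0 and 7.75 CPM (libraries 2-3V, 2-3VM, the library with no set label, 4-2V, 4-2VM and 4-3V), a mean of 18.9 ± 11.7 CPM (SD, n = 6). The knockdown libraries all lay above the senescent controls and overlapped the growing cells. Their mean was 5.81 times that of 4OHT_siNT and 47.1% of that of DMSO_siNT, or 45.7% without DMSO_siNT 4-2V. These pooled values mix V and VM sets in unlike numbers, and the shares by set are given below.

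The fitted log2 differences of GPRC5A were -3.62 for 4OHT_siNT minus DMSO_siNT, 2.53 for 4OHT_siSMARCA4 minus 4OHT_siNT and -1.09 for 4OHT_siSMARCA4 minus DMSO_siNT. Without DMSO_siNT 4-2V they were -3.66, 2.51 and -1.14. These contrasts chose the gene, and the shares of all 13136 genes called in them (28.9% lower in the first, 4.99% higher in the second) are given only as a setting for the next member.

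**Figure D1:**
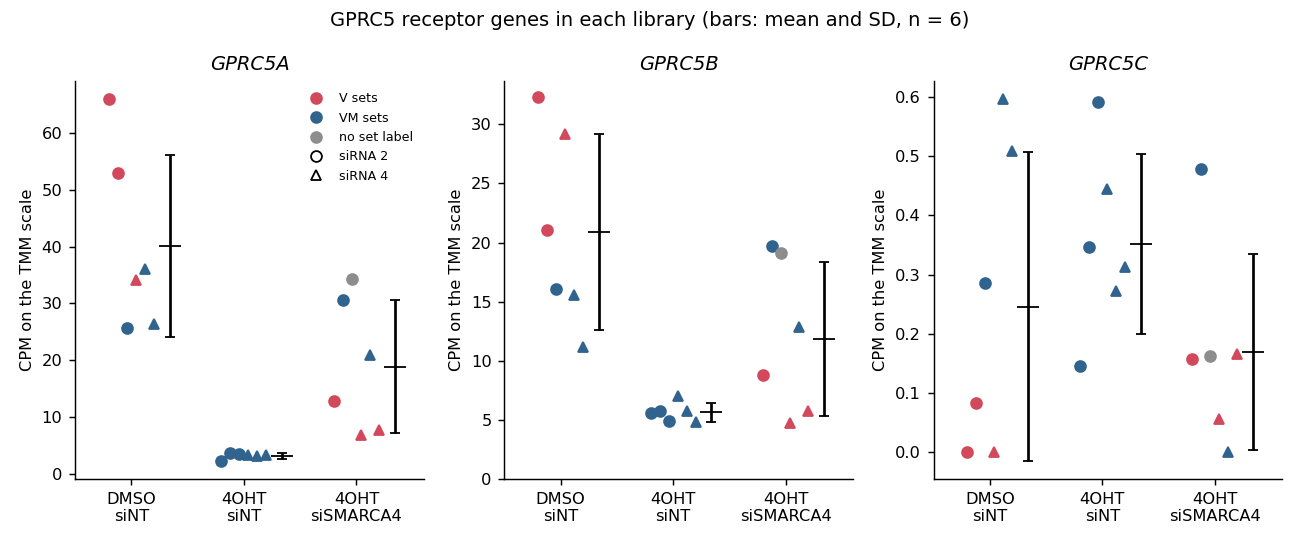
Level of each member in CPM (vertical axes, linear, a scale per gene) in every library of the 3 groups, with colour for the set letters, shape for the siRNA number and bars for mean and SD (n = 6). GPRC5A and GPRC5B are low in all 6 4OHT_siNT libraries, and in 4OHT_siSMARCA4 the V libraries sit low and the VM and unlabelled ones high. GPRC5C stays below 0.6 CPM throughout.

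GPRC5B (chr16:19856691-19886167, minus strand, 4 exons) was lower in senescent than in growing cells and higher again after SMARCA4 knockdown, the second with a narrow margin. Its level in DMSO_siNT was 32.3, 21.1, 16.1, 29.2, 15.6 and 11.2 CPM, in the library order used above, and in 4OHT_siNT 5.61, 5.81, 4.95, 7.05, 5.80 and 4.84 CPM. These groups did not overlap, with means of 20.9 ± 8.28 and 5.68 ± 0.793 CPM (SD, n = 6 each), the first 19.2 ± 8.08 CPM (SD, n = 5) without DMSO_siNT 4-2V. The log2 difference was -1.87 ± 0.33 (SE, adjusted p = 8.3e-05), and -1.75 ± 0.32 (adjusted p = 8.2e-05) without DMSO_siNT 4-2V. In this contrast 52.8% of the genes tested were called, 23.9% higher and 28.9% lower, so that 1 call among the relatives of GPRC5A lies near the background.

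In 4OHT_siSMARCA4 GPRC5B stood at 8.82, 19.8, 19.2, 4.77, 12.9 and 5.77 CPM, a mean of 11.9 ± 6.53 CPM (SD, n = 6) and 56.7% of the growing mean (61.6% without DMSO_siNT 4-2V). The library 4-3V lay within the range of the senescent controls, 4-2V just below it and the other 4 above it. The log2 difference from 4OHT_siNT was 1.06 ± 0.33 (SE, adjusted p = 0.0432), in a contrast that called 10.6% of genes, 4.99% higher and 5.65% lower. Without DMSO_siNT 4-2V it was 1.04 ± 0.31 (adjusted p = 0.0193), where 24.6% were called. The call was lost in 11 of 18 fits that left out 1 library (adjusted p 0.0508 to 0.1305): any of the 6 4OHT_siNT libraries, DMSO_siNT 2-2V or 4-2VM, or 4OHT_siSMARCA4 2-3VM, 4-2VM or the unlabelled one, and it was lost with siRNA 4 alone (log2 difference 0.36, adjusted p = 0.849).

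Against growing cells GPRC5B was lower after knockdown by -0.82 ± 0.31 (log2, SE, adjusted p = 0.0359), where 50.5% of genes were called. That call too was lost in 7 of 18 fits without 1 library (DMSO_siNT 2-1V, 2-2V or 4-2V, 4OHT_siSMARCA4 2-3V, 4-2V, 4-2VM or 4-3V, adjusted p 0.0510 to 0.101), DMSO_siNT 4-2V among them (-0.71 ± 0.30, adjusted p = 0.0510). Within the VM sets the sign turned (log2 difference 0.18, adjusted p = 0.518).

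GPRC5C (chr17:74424851-74451653, plus strand, 4 exons) was barely detected and did not pass the filter on low counts, which 2 of the 3 members passed. Its counts were 0, 1, 4, 0, 8 and 7 in DMSO_siNT, 2, 5, 8, 6, 4 and 4 in 4OHT_siNT, and 2, 6, 2, 1, 0 and 2 in 4OHT_siSMARCA4. The 3 groups overlapped. In a fit of all 22201 genes with at least 1 count, its log2 differences were 0.46 ± 0.65 (SE, adjusted p = 0.615) for 4OHT_siNT minus DMSO_siNT and -1.02 ± 0.69 (adjusted p = 0.493) for 4OHT_siSMARCA4 minus 4OHT_siNT, so no difference was detectable at this depth.

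Per kilobase of canonical transcript (6.582 kb for GPRC5A, 5.144 kb for GPRC5B and 1.813 kb for GPRC5C), the members kept this order in growing cells, with 6.10 ± 2.43, 4.06 ± 1.61 and 0.136 ± 0.144 CPM per kb (SD, n = 6). GPRC5A and GPRC5B overlapped there. Without DMSO_siNT 4-2V these were 6.29 ± 2.67, 3.74 ± 1.57 and 0.163 ± 0.143 CPM per kb (SD, n = 5), and the first pair still overlapped. In 4OHT_siNT the order of the first pair was turned, with 0.494 ± 0.0766 CPM per kb for GPRC5A and 1.10 ± 0.154 for GPRC5B, and no overlap. After knockdown the levels were 2.87 ± 1.78 and 2.31 ± 1.27 CPM per kb.

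The ratio of GPRC5A to GPRC5B counts within a library needs no scaling between libraries. It was 1.17 to 2.51 (median 2.18) in DMSO_siNT, 0.403 to 0.710 (median 0.598) in 4OHT_siNT and 1.34 to 1.79 (median 1.504) in 4OHT_siSMARCA4. The knockdown libraries all lay above the senescent controls. They lay inside the growing range as well, but its lowest value is that of DMSO_siNT 4-2V. Without that library the growing range was 1.60 to 2.51 (median 2.31), with 4 of the 6 knockdown libraries below it and 2 inside. The ratio stayed above the senescent controls where both levels were low: 4OHT_siSMARCA4 4-2V had 4.77 CPM of GPRC5B, less than any senescent control, with a ratio of 1.44. Since GPRC5A was chosen for its level in these groups, the ratio is a description.

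**Figure D2:**
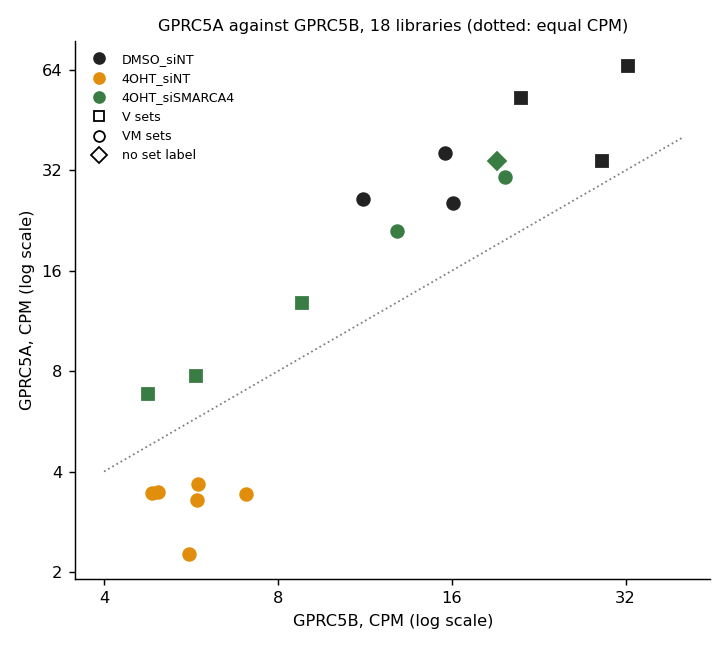
GPRC5A against GPRC5B in CPM (both axes logarithmic) in 18 libraries, coloured by group, with shapes for the set letters and a dotted line where both are equal. The 6 4OHT_siNT libraries lie below the line and the other 12 above it, and the 3 V libraries of 4OHT_siSMARCA4 lie nearest to the senescent controls in GPRC5B.

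GPRC5A and GPRC5B in the knockdown libraries were lower in V than in VM sets, and in growing cells their means were higher in V sets. In 4OHT_siSMARCA4 the V libraries (2-3V, 4-2V and 4-3V) had 9.14 ± 3.23 CPM of GPRC5A (SD, n = 3), the VM libraries (2-3VM and 4-2VM) 21.0 and 30.7 CPM, and the unlabelled one 34.3 CPM. In DMSO_siNT the V libraries had 50.97 ± 16.0 CPM and the VM libraries 29.3 ± 5.80 CPM (SD, n = 3 each). GPRC5B showed the same arrangement, with 6.45 ± 2.11 CPM in V and 12.9 and 19.8 CPM in VM libraries after knockdown, and 27.5 ± 5.78 and 14.3 ± 2.68 CPM in growing cells. Without DMSO_siNT 4-2V the growing V libraries were 65.9 and 52.9 CPM for GPRC5A and 32.3 and 21.1 CPM for GPRC5B, above all 3 VM libraries for both genes. After knockdown V and VM libraries did not overlap for either gene. With so few libraries many genes may separate in this way, and the share of all genes that did was not computed. The separation is therefore a description.

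V minus VM in 4OHT_siSMARCA4 was -1.51 ± 0.30 for GPRC5A and -1.35 ± 0.27 for GPRC5B (log2, SE, adjusted p = 0.0689 for each), short of the threshold of 0.05 in a contrast that called 0.101% of 13887 genes. In DMSO_siNT it was 0.79 ± 0.26 (adjusted p = 0.184) and 0.93 ± 0.24 (adjusted p = 0.09998), where 0.324% were called. GPRC5C, in an edgeR fit of 22107 genes, went the other way in DMSO_siNT, from at most 8 counts a library (-3.65 ± 1.10, adjusted p = 0.168). After knockdown GPRC5C was at -0.99 ± 1.02 and not called. Without DMSO_siNT 4-2V the GPRC5A difference in growing cells passed, at 1.00 ± 0.22 (adjusted p = 0.0385), and so did both differences after knockdown, with adjusted p-values of 0.0045 for GPRC5A and 0.0123 for GPRC5B. Leaving out DMSO_siNT 2-2V gave a call for GPRC5B in growing cells (1.09, adjusted p = 0.0292), and after knockdown GPRC5A was called without DMSO_siNT 2-1V (adjusted p = 0.0485) and both genes without 4OHT_siSMARCA4 2-3V (0.0186 and 0.0202). DESeq2 called both genes after knockdown (adjusted p = 0.0013 for GPRC5A and 0.0021 for GPRC5B), where it called 1.1% of 13860 genes. So did edgeR with the unlabelled library counted as VM, as its count column reads (0.0100 and 0.0108). These other settings of V minus VM were added after the values had been seen. Shares of all genes called are given only for the main fit and DESeq2, so the gained calls add no support.

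The V minus VM difference itself differed between the groups, by -2.30 ± 0.40 for GPRC5A (adjusted p = 0.0420) and -2.28 ± 0.36 for GPRC5B (log2, SE, adjusted p = 0.0270). Both were among 12 genes called of 13887, or 0.0864%, and this contrast was added after their values had been seen. Without DMSO_siNT 4-2V the differences were -2.50 ± 0.32 (adjusted p = 0.0023) and -2.23 ± 0.35 (0.0086). The call for GPRC5A was lost in 12 of 17 fits without 1 library (adjusted p 0.0651 to 0.269), namely DMSO_siNT 2-1V, 2-2VM or 4-3VM, 4OHT_siNT 2-2VM, 2-3VM, 4-1VM, 4-2VM or 4-3VM, and 4OHT_siSMARCA4 2-3VM, 4-2V, 4-2VM or 4-3V. That for GPRC5B was lost in 7 of them (0.0550 to 0.221), namely DMSO_siNT 2-1V, 2-2VM or 4-3VM, 4OHT_siNT 2-2VM, and 4OHT_siSMARCA4 2-3VM, 4-2V or 4-3V. No 4OHT_siNT library with V letters was analysed here, so the knockdown effect within V sets could not be computed.

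Other measures also lay apart by set letters in the knockdown libraries, though SMARCA4 was not called and the summed fibroblast markers were not tested. SMARCA4 itself stood at 124.6, 140.7 and 92.7 CPM in the V libraries, at 87.0 and 70.4 CPM in the VM libraries and at 78.8 CPM in the unlabelled one, without overlap between V and VM (log2 difference 0.59 ± 0.17 SE, adjusted p = 0.247). The summed fibroblast markers were 11267 to 12737 CPM in V and 8751 to 10582 CPM in VM libraries. The part of residual SMARCA4 and of these markers in the GPRC5 values was not tested.

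Within the VM sets alone, with 2 knockdown libraries, GPRC5A after knockdown reached 88.1% of the growing mean and GPRC5B 114%. GPRC5B differed there from the senescent controls by 1.51 on the log2 scale (adjusted p = 7.5e-05), in a contrast that called 21% of 13615 genes. Within the V sets the corresponding shares were 17.9% and 23.5%, or 15.4% and 24.2% without DMSO_siNT 4-2V. The log2 differences of GPRC5A in the VM sets were -3.17 for 4OHT_siNT minus DMSO_siNT, 2.97 for 4OHT_siSMARCA4 minus 4OHT_siNT and -0.19 for 4OHT_siSMARCA4 minus DMSO_siNT.

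By siRNA number, GPRC5A after knockdown averaged 25.9 ± 11.5 CPM with siRNA 2 and 11.9 ± 7.93 CPM with siRNA 4 (SD, n = 3 each), and GPRC5B 15.9 ± 6.14 and 7.81 ± 4.42 CPM. The ranges overlapped for both genes. The log2 differences, siRNA 2 minus 4, were 1.15 ± 0.42 (SE, adjusted p = 0.644) and 1.06 ± 0.41 (adjusted p = 0.665), in a contrast that called 0.00732% of 13659 genes, a single one. Over the 18 fits that left out 1 library these were 0.87 to 1.85 and 0.79 to 1.62, lowest without 4OHT_siSMARCA4 4-2V and highest without 4-2VM, and never called. The siRNA 4 arm held V libraries in 2 of 3 cases and the siRNA 2 arm in 1 of 3, so number and letters were not balanced.

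Neither gene was called between the non-targeting siRNAs. In DMSO_siNT siRNA 2 minus 4 was 0.58 ± 0.40 for GPRC5A (adjusted p = 0.345) and 0.33 ± 0.39 for GPRC5B (adjusted p = 0.589), with 0.0512% of genes called. Without DMSO_siNT 4-2V these were 0.62 ± 0.42 (adjusted p = 0.443) and 0.79 ± 0.37 (adjusted p = 0.280). Without DMSO_siNT 2-1V they were 0.29 and 0.010, so the size of this difference rests on single libraries. In 4OHT_siNT it was -0.11 ± 0.49 (adjusted p = 0.973) and -0.12 ± 0.42 (adjusted p = 0.964), with 0.0732% called. The knockdown effect, taken between libraries of the same siRNA number a pairing by number alone, differed between the numbers by 1.26 ± 0.65 for GPRC5A (adjusted p = 0.722) and 1.17 ± 0.59 for GPRC5B (adjusted p = 0.709), with 0.0146% called (1.25 ± 0.67 and 1.16 ± 0.51 without DMSO_siNT 4-2V). The 4OHT effect differed by -0.69 ± 0.64 (adjusted p = 0.509) and -0.44 ± 0.58 (adjusted p = 0.647), where edgeR called 0 genes (0%), 3258 had an unadjusted p under 0.05 and DESeq2 called 796. Without DMSO_siNT 4-2V it was -0.72 ± 0.68 (adjusted p = 0.551) and -0.89 ± 0.52 (adjusted p = 0.320). GPRC5C was not called in any of these contrasts in the fit of all genes, with adjusted p-values of 0.380 and above.

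**Figure D3:**
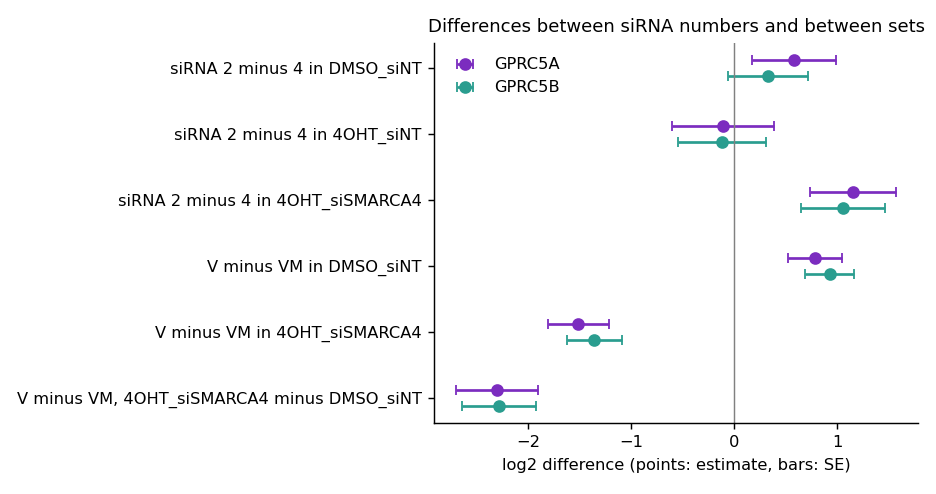
Log2 differences of GPRC5A and GPRC5B (horizontal axis, points for estimates and bars for SE) between siRNA numbers in each group, between set letters in 2 groups, and the difference of the latter between groups (bottom row). The set-letter estimates lie on opposite sides of 0 in DMSO_siNT (0.79 and 0.93) and 4OHT_siSMARCA4 (-1.51 and -1.35).

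Genes of the retinoid pathway, through which the family was found, were called about as often as all genes in senescence. Of a list of 24 retinoid receptors, carriers, enzymes and response genes, 14 were tested. In 4OHT_siNT against DMSO_siNT 6 were called higher, 2 lower and 6 not called (median log2 difference 0.22, against -0.05 over all genes), where 23.9% of all genes were called higher and 28.9% lower. After knockdown 3 were higher, 1 lower and 10 not called (median 0.03, against 0.01 over all genes), where 4.99% and 5.65% were. None of the 14 was both lower in senescence and higher after knockdown, as were 1.97% of all genes, so a list of this size says little about that pattern. Without DMSO_siNT 4-2V, 7 were higher and 3 lower in senescence, where 27.9% and 30.3% of all genes were. After knockdown 4 were then higher and 3 lower, where 11.7% and 12.9% of all genes were.

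Among the receptors, RARA rose in senescence by 0.89 ± 0.16 (log2, SE, adjusted p = 0.00011) and RARG fell by 0.72 ± 0.21 (adjusted p = 0.0078), and neither passed after knockdown (adjusted p = 0.492 and 0.668). RARB, itself a classical retinoic acid target, had at most 13 counts in any library. CRABP2, which carries retinoic acid to its receptors, fell in senescence (-2.68 ± 0.23, adjusted p = 1.0e-08) and fell further after knockdown (-1.37 ± 0.26, adjusted p = 0.0023), from 16.0 ± 3.66 CPM in growing cells to 2.48 ± 0.671 and then 0.957 ± 0.404 CPM (SD, n = 6).

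ALDH1A3, which makes retinoic acid from retinal, rose in both steps, by 0.85 ± 0.20 (adjusted p = 0.0015) and 1.27 ± 0.20 (adjusted p = 0.00045). DHRS3, which returns retinal to retinol and is itself retinoid-induced, also rose in both, by 1.55 ± 0.21 (adjusted p = 3.8e-06) and 1.13 ± 0.20 (adjusted p = 0.0012). RARRES1, a retinoid response gene, rose after knockdown (1.14 ± 0.35, adjusted p = 0.0394). RARRES2 and TGM2, also of this list, went the other way after knockdown. They were not called (-1.46 ± 0.49, adjusted p = 0.0616, and -0.85 ± 0.29, adjusted p = 0.0655). Without DMSO_siNT 4-2V both were called lower (-1.47, adjusted p = 0.00049, and -0.86, adjusted p = 0.0037). CYP26B1, which degrades retinoic acid, rose from 0.192 ± 0.224 to 9.60 ± 2.97 CPM in senescence (5.54 ± 0.58, adjusted p = 1.6e-07) and stood at 5.02 ± 3.25 CPM after knockdown (adjusted p = 0.154).

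Of 18 other class C receptors, 2 passed the filter, both subunits of the GABA-B receptor. Of all genes, 23.9% were called higher in senescence, and 4.99% higher and 5.65% lower after knockdown. GABBR2 rose in senescence (0.59 ± 0.21, adjusted p = 0.0250) and fell after knockdown (-0.83 ± 0.21, adjusted p = 0.0162), and GABBR1 rose in senescence (0.44 ± 0.18, adjusted p = 0.0459) and did not pass after knockdown (-0.43 ± 0.18, adjusted p = 0.136). Without DMSO_siNT 4-2V both calls of GABBR1 turned (0.33, adjusted p = 0.0598, and -0.44, adjusted p = 0.0268). Of 5 genes of the EGFR and STAT3 pathways and other signalling, to which work on GPRC5A has tied it, 4 were tested. EGFR (0.98 ± 0.20, adjusted p = 0.00041), SOCS3 (0.84 ± 0.26, adjusted p = 0.0103) and STAT3 (0.32 ± 0.08, adjusted p = 0.0031) rose in senescence, MDM2 was not called, and after knockdown none of the 4 was called, though MDM2 was without DMSO_siNT 4-2V (0.31, adjusted p = 0.0298).

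**Figure D4:**
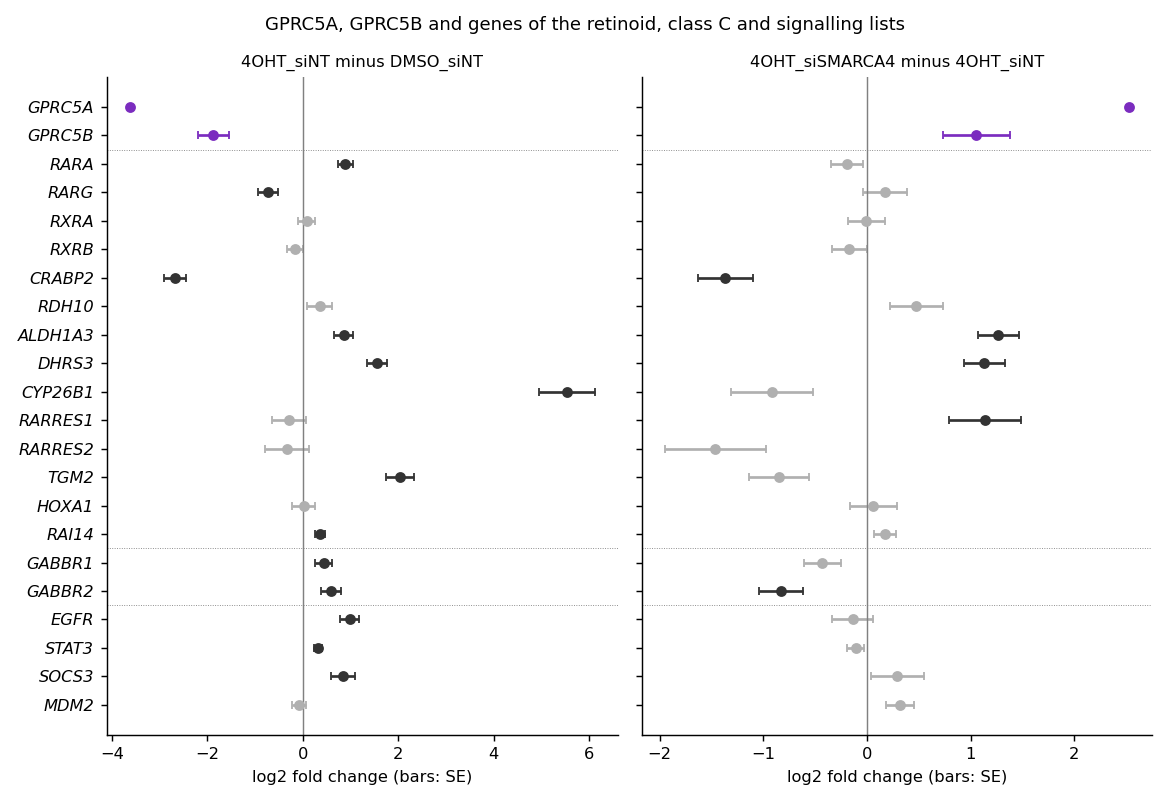
Log2 fold changes (horizontal axes, bars for SE) of GPRC5A, GPRC5B and the tested genes of the retinoid, class C and signalling lists, for senescence (left) and knockdown (right), with genes that were not called in grey and GPRC5A without an error bar or test. GPRC5A at -3.62 and 2.53 and GPRC5B at -1.87 and 1.06 go down and then up, and CRABP2 goes down in both.

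Of the genes next to GPRC5A on the chromosome, 3 of the 5 tested fell in senescence, where 28.9% of all genes were called lower. None was called after knockdown, where 10.6% of all genes were, so 5 genes say little against this background. The difference of these neighbours from GPRC5A was not tested. GPRC5A is flanked by CDKN1B, APOLD1 and DDX47 on one side and GPRC5D, HEBP1 and FAM234B on the other. In senescence CDKN1B, which encodes the kinase inhibitor p27 (-1.16 ± 0.11, adjusted p = 6.6e-08), HEBP1, which encodes a heme-binding protein (-1.27 ± 0.19, adjusted p = 1.9e-05), and the RNA helicase gene DDX47 (-0.38 ± 0.08, adjusted p = 0.0010) fell, FAM234B rose (1.07 ± 0.17, adjusted p = 3.8e-05) and APOLD1 was not called. In the VM sets alone HEBP1 was called higher (0.40, adjusted p = 0.0403) and FAM234B lower (-0.53, adjusted p = 0.0374) after knockdown, and HEBP1 was called higher also without DMSO_siNT 4-2V (0.28, adjusted p = 0.0417).

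GPRC5B is flanked by VPS35L, KNOP1 and IQCK and by GPR139, GP2 and UMOD. The last 3 had 0 counts in all libraries. None of the first 3 was called in senescence, where 52.8% of all genes were, or after knockdown, where 10.6% were. Without DMSO_siNT 4-2V, VPS35L was called lower in senescence (-0.34, adjusted p = 0.0078). IQCK overlaps the end of GPRC5B by 1777 bases on the opposite strand, and whether the counting used strand is not given in the sources used here, so reads in the overlap cannot be assigned. IQCK stood at 6.79 ± 1.03, 6.91 ± 1.04 and 9.16 ± 1.73 CPM in DMSO_siNT, 4OHT_siNT and 4OHT_siSMARCA4 (SD, n = 6), with log2 differences of 0.02 ± 0.15 (adjusted p = 0.905) and 0.41 ± 0.15 (adjusted p = 0.0890). None of the 6 neighbours of GPRC5C passed the filter.

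**Figure D5:**
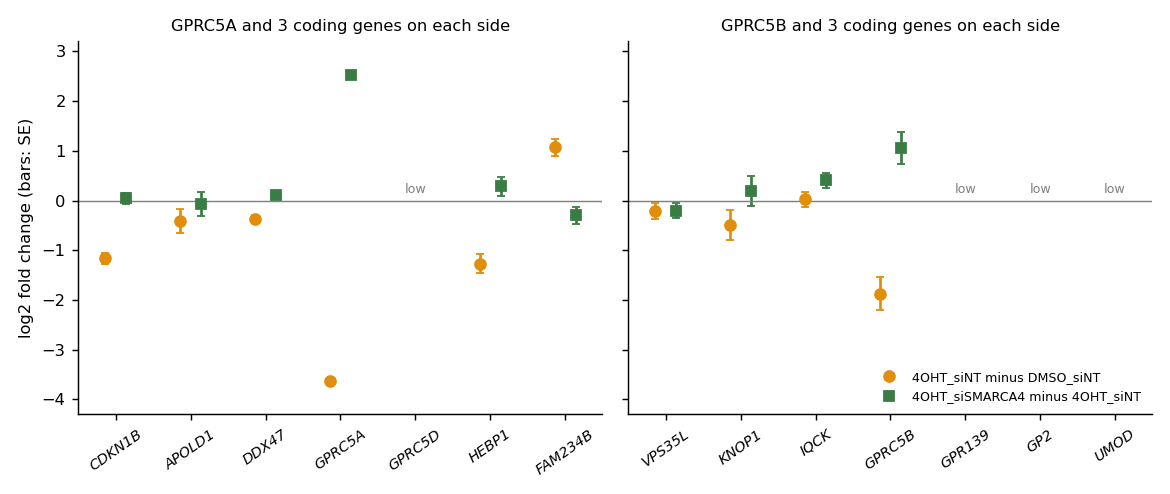
Log2 fold changes (vertical axis, bars for SE) of GPRC5A (left), GPRC5B (right) and the 3 protein-coding genes on each side in chromosomal order, for senescence (circles) and knockdown (squares), with "low" for genes that did not pass the filter. GPRC5A (-3.62 and 2.53), which was chosen for these differences, and GPRC5B (-1.87 and 1.06) go down and then up, and 3 neighbours of GPRC5A lie below 0 in senescence as called genes (CDKN1B, HEBP1 and DDX47).

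Over 18 libraries, the genes whose centred log2 CPM differed least from that of GPRC5A, among 11513 genes whose mean log2 CPM exceeded 1, were TNFAIP8 (root mean square difference 0.73), the mitotic kinase gene MELK (0.78), the centromere gene CENPK (0.79), RASL11A (0.79) and NMI (0.80). GPRC5B came 6th, at 0.80, against a spread of GPRC5A itself of 1.61 (SD). These genes span a smaller range than GPRC5A: TNFAIP8, the nearest, stood at 26.8 ± 9.59, 5.71 ± 0.693 and 14.0 ± 3.77 CPM in DMSO_siNT, 4OHT_siNT and 4OHT_siSMARCA4 (SD, n = 6).

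The pattern of GPRC5B was met more closely, by IFI35 (0.32), GAS2L3 (0.35), NNAT (0.37), TNFAIP8 (0.38) and CARD16 (0.40), against an SD of 0.94. IFI35, an interferon-induced gene, stood at 6.11 ± 1.99, 1.71 ± 0.466 and 3.93 ± 1.82 CPM, and NNAT, an imprinted gene, at 9.80 ± 5.90, 2.74 ± 0.534 and 7.16 ± 3.23 CPM (SD, n = 6). TNFAIP8 was the one gene in both sets of 5, and without DMSO_siNT 4-2V the same 5 genes were nearest to each member. Seen from GPRC5B, GPRC5A ranked 1938th, as its swings are wider.

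The sequence before the RefSeq start of GPRC5B is shown because the family was found through retinoic acid. The window shown is 157 bases of chr16:19885728-19885884 (GRCh38.p14, minus strand) that end 94 bases before the RefSeq start of transcription at position 19885634. The bases nearer to that start, annotated as untranslated sequence of another transcript, were left out and not searched. Capitals mark the single retinoic acid receptor half-site of the window (AGGTCA or AGTTCA, both strands searched), which begins 234 bases before that start. GENCODE 44, from which the gene's span above was taken, has a start 533 bases farther upstream, and in 2 of its 11 transcripts of the gene the window is intron, with no exon of any transcript in it.
GPRC5B: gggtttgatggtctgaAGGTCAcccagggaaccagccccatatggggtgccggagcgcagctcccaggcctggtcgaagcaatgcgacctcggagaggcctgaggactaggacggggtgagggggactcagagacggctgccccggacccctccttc
Of 35116 upstream windows of this length, 13.0% hold such a half-site. The window also holds 1 E-box (CANNTG), as do 46.6% of windows, and no AP-1 motif (TGANTCA, in 4.01%) or GC box (GGGCGG, in 27.1%). A match is a description of the letters and not of binding.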

How the data were processed

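RNA was extracted with an RNeasy kit, made into directional polyA libraries, sequenced as single-end reads and, per the study's methods and the submitters' processing notes, aligned with STAR 2.7.8a to hg38. The counting program, the annotation and the use of strand are not given in the sources used here. The deposited values are raw read counts per gene symbol that the authors did not normalize, in 36 columns, and the 2 lanes of each of 18 libraries were summed. Of 29 samples in the labels 17 matched a library and 12 were not analysed here. A library named for 4OHT_siSMARCA4 with siRNA 2 has a set name ending in VM that no title of that siRNA carries. It was used as a replicate with no set label.

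Genes were filtered with filterByExpr (minimum count 10, leaving 13136 genes with 99.9% of counts), scaled with TMM and tested in 1 fit of all libraries with edgeR 4.0.16 (quasi-likelihood F test, R 4.3.3). Benjamini-Hochberg adjustment covered every tested gene, calls needed an adjusted p under 0.05, and SEs were derived from the F statistic. The common biological coefficient of variation was 23.3%. siRNA numbers (13659 genes) and set letters (17 libraries, 13887 genes) had fits of their own. Likeness of patterns used log2 CPM with a prior count of 2. Depth limits mainly GPRC5C. Named genes are the family, list genes, the 3 coding neighbours on each side, the 5 genes nearest in pattern, and SMARCA4, ESR1 and HRAS as checks. The members and lists were chosen with earlier results of these data known. A few list genes are not reported here and were left out of the counts.

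Alternatives were DESeq2 1.42.0 and its size factors, no filter, the contrasted groups alone, a replicate block, VM sets, single siRNAs and each library left out. No pair of libraries within a group agreed within counting noise (chi-square per degree of freedom 2.33 to 315). Both count models were first tested on simulated data.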

Additional observations from a re-analysis of the deposited data

Results flagged for a closer look

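GPRC5A and GPRC5B moved between V and VM sets in opposite directions in the 2 groups that hold both. The difference of V minus VM between 4OHT_siSMARCA4 and DMSO_siNT was -2.30 for GPRC5A and -2.28 for GPRC5B on the log2 scale. Both passed the adjusted threshold, but this contrast was added after their values had been seen, so passing adds no support. Leaving out a library lost the call in 12 of 17 fits for GPRC5A and in 7 of 17 for GPRC5B. The letters are not explained in the sources used here, and the unlabelled library was left out. No 4OHT_siNT library with V letters could be set beside these 2 groups.

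Single libraries lay far from the rest of their group in 4 of 15 sets of 6 values examined, where chance gives 0.75 on average. GPRC5A was low in 4OHT_siNT 2-1VM, at 2.26 CPM, with a gap to its neighbour of 0.765 of the group's range. In DMSO_siNT 4-2V the gap was 0.936 of the range for ESR1 and 0.853 for HRAS. HRAS was also low in 4OHT_siSMARCA4 4-3V, at 3231 CPM, with a gap of 0.671.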

How the results depend on the processing

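Across 22 comparisons of GPRC5A and GPRC5B, 88 of 108 values under other settings were counted as unchanged. For tested values this meant the same side of the threshold, and the same direction where called, whatever the size. For the untested group contrasts of GPRC5A it meant the same direction and a shift smaller than the SD within groups. With set labels fitted as a replicate block, GPRC5B was no longer called after knockdown (1.19, adjusted p = 0.190) or against growing cells (-0.56, adjusted p = 0.339), and in the same fit the knockdown contrast called 236 genes instead of 1397. The set labels did not pair the libraries by deviations, with r from -0.35 to 0.41 over 15 same-set pairs.

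In the VM sets alone GPRC5A moved to -3.17 for 4OHT_siNT minus DMSO_siNT and -0.19 for 4OHT_siSMARCA4 minus DMSO_siNT, and GPRC5B turned to 0.18 in the latter. With the unlabelled library added, a choice made after seeing the data, these were -3.17, -0.047 and 0.26. The VM sets called 2858 genes after knockdown. With siRNA 4 alone the knockdown difference was 1.77 for GPRC5A and 0.36 for GPRC5B, and GPRC5B against growing cells was -1.25 (-0.54 with siRNA 2 alone, -0.76 with all genes and -0.83 with the 2 groups alone), all short of the threshold. For these changes the cause was not tested.

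For V minus VM, under settings also added after seeing the data, DESeq2 called GPRC5B in DMSO_siNT (0.95) and GPRC5A (-1.50) and GPRC5B (-1.34) after knockdown. GPRC5A was also called with all genes (-1.51), and both with the unlabelled library as VM (-1.66 and -1.44). DESeq2 called 1782, 207, 47, 68 and 796 genes in the 5 siRNA contrasts and 426, 152 and 130 in the 3 set contrasts.

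Leaving out each library in turn gave -1.99 to -1.70 for GPRC5B in senescence, with the call kept throughout, 0.84 to 1.22 after knockdown and -1.02 to -0.64 against growing cells. V minus VM ranged from 0.56 to 1.00 (GPRC5A) and 0.79 to 1.09 (GPRC5B) in DMSO_siNT, -1.81 to -1.21 and -1.63 to -1.01 after knockdown, and -2.60 to -1.99 and -2.56 to -1.93 for the difference between groups. Of 148 counts in gene lists under DESeq2, in the VM sets or without DMSO_siNT 4-2V and of shared nearest genes, 126 stayed within 1.5 times the reported one.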
